A study of Mus musculus with 3 samples.

Results

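The regions described here are the Tet2 CLIP peaks that lie outside annotated genes in mouse mast cells. A peak belongs to them when its midpoint falls in no gene span of the RefSeq annotation on GRCm38.p6 (the assembly behind mm10 coordinates). They number 725 of 8196 peaks: 276 of 3019 in replicate 1, 233 of 2800 in replicate 2 and 216 of 2377 in replicate 3. The other 7471 peaks lie inside a span. Of the 725, 710 are clear of every span and 15 reach into a span with some of their bases.

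Tet2 was cross-linked to RNA in mast cells grown from the bone marrow of C57BL/6 mice, and the bound RNA fragments were sequenced to find which RNAs the protein contacts. The 3 libraries are 1 group of biological replicates and all had the same handling. Marrow cells were grown for 4 to 6 weeks with 10 ng/ml interleukin-3 (IL-3) and 5 ng/ml stem cell factor (SCF), until over 97.5% carried FcεRI and c-Kit, and each library took 40000000 cells irradiated with 400 and then 200 mJ per cm2 of ultraviolet light. No genotype or drug was compared, and neither input nor control-antibody libraries were part of the data analysed, so peak height has no measured background. The labels name no separate animals, and all errors are the SD over the 3 libraries, part of which may be technical.

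Tet2 is an oxidase of 5-methylcytosine, best known for its action on DNA and as a restraint on the growth of blood stem cells. CLIP (cross-linking and immunoprecipitation) reads pile up where the protein touches RNA. A peak outside a gene can therefore mark RNA that the annotation does not hold, though background was not measured here. Such RNA can come from the stretch just before a gene's start, where many promoters are transcribed on both strands, from beyond a gene's end, from the long precursors of ribosomal RNA and microRNAs, or from repeats and unannotated genes.

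The bases at the best replicated of the peaks just before a gene are printed first. These are the regions outside genes for which a sequence was at hand. The RefSeq promoter windows cover the 250 bases before each start that the table lists, and 81 of the 725 peaks (11.2%) have their midpoint in such a window. A further 14 peaks lie within 250 nt before a gene span but in no window: 8 are at microRNA genes, which have no window in the table, and 6 are at Tsc1, Flt1 and Xpot, whose listed start lies inside the span. Tsc1, with 17, 18 and 13 units, is therefore not among the sites printed here, though it is in all 3 libraries and taller than any of them. They form 57 sites at 64 genes, where a site is a group of peaks within 100 nt of each other in any library. All 3 libraries had a peak at 8 of these sites, 2 libraries at 7 and 1 library at 42. The 8 replicated ones follow, on the strand of the gene. Capitals run from the first to the last base of the joined peaks, with up to 20 bases of each flank in lower case. Gaps between peaks are in capitals too, as at Gltp and Prmt2. At Rhbdl1 and Prmt2 the peak of replicate 1, and at Gltp that of replicate 2, overlapped no peak of another library. Only bases inside the promoter window are printed, so the joined peaks at Prmt2 and Ubr4 are cut at its edge. The strand of the peaks themselves is not given in the files.
Mrfap1, chr5:36796807-36796852, minus strand: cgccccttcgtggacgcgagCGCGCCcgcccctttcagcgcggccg
Rhbdl1, chr17:25837171-25837262, minus strand: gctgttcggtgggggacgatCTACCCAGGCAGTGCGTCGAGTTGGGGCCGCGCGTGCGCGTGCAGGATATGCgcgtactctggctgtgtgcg
Gm30031, chr14:33923310-33923389, minus strand: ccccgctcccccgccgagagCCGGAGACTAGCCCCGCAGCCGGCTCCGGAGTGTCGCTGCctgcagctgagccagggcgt
Gltp, chr5:114691060-114691185, minus strand: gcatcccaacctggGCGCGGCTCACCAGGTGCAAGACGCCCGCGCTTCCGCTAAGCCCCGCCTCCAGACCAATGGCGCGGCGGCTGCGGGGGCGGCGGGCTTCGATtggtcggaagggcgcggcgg
Fzd5, chr1:64737914-64737971, minus strand: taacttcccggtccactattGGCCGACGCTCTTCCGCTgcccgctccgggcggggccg
Prmt2, chr10:76237866-76237985, minus strand: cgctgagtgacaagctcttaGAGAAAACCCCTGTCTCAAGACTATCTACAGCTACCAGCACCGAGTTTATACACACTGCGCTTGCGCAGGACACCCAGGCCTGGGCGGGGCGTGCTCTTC
Tfdp1, chr8:13338521-13338686, plus strand: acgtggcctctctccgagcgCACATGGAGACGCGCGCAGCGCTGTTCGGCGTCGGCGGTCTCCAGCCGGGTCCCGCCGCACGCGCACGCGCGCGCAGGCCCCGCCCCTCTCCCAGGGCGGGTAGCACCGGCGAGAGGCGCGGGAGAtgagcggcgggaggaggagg
Ubr4, chr4:139380409-139380517, plus strand: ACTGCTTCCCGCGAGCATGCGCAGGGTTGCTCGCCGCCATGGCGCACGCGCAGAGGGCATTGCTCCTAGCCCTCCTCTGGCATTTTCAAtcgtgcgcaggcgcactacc

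All but 1 of these 8 stretches are rich in G and C. Over the bases in capitals, the share of G and C was 58.0% for Prmt2, which encodes a protein arginine methyltransferase. It was between 64.0% and 100% for the others, the highest being the 6 bases at Mrfap1. The Gltp stretch holds GGGCGG and CCAAT, both common in promoters of housekeeping genes. Its GGGCGG lies under the peak of replicate 2, while its CCAAT lies in the gap between peaks, under none of them. The site printed for Gm30031 lies between that gene and Gdf10, which start on opposite strands, and falls in the windows of both. Over the 57 sites, 7 lie in windows of 2 genes.

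Across the 66 promoter windows that hold a peak, G and C made up a median of 69.0% of bases, with quartiles of 64.0% and 73.5%. The median was 52.4% over all promoter windows, 55.6% over those of protein-coding genes and 61.6% over the 3343 windows of genes that hold a Tet2 peak inside their span. CpG pairs followed the same order, with a median of 24 per window, against 6 in all windows, 10 in coding windows and 17 in those of genes with a peak inside. The motif GGGCGG, the GC box bound by Sp1, was found on either strand in 47 of the 66 windows (71.2%), with an exact 95% interval of 58.7% to 81.7%, against 32.7% of all, 42.6% of coding windows and 60.8% of windows of genes with a peak inside. TATAAA stood in 6 windows (9.09%), against 12.4%, 11.6% and 6.55%, and CCAAT in 19 (28.8%), against 33.8%, 35.3% and 33.4%. The interval lies above the share in all and in coding windows and includes that of genes with a peak inside. It covers counting error only, and some windows share a site. These are counts of letters in a fixed window, all motifs searched on both strands, and 61 of the 66 windows belong to protein-coding genes.

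Peak heights are given in units, the smallest step of the authors' normalized height in a library. Whether it stands for 1 read was not given in the sources used here. At the Mrfap1 site the heights were 16, 13 and 13 units in replicates 1, 2 and 3, the tallest of the sites in these windows. Rhbdl1, a rhomboid-family gene, had 16, 15 and 6 units, so replicate 3 was low there. The Gm30031 and Gdf10 site had 5, 5 and 7 units. The first pair stood well above the lowest heights of the lists, except Rhbdl1 in replicate 3.

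The other 5 replicated promoter sites were low in every library. Gltp, a glycolipid transfer protein gene, had 7, 4 and 4 units. Fzd5, a Wnt receptor gene, had 7, 4 and 3 units. Prmt2 had 4, 5 and 4 units. Tfdp1, the gene of the dimerization partner of E2F factors, had 3, 3 and 5 units, and Ubr4, an E3 ubiquitin ligase gene, had 4, 3 and 3. The 81 peaks in the windows had a median of 4 units and a highest value of 16.

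The second set of sequences belongs to microRNAs. A microRNA is cut out of a long primary transcript by Drosha, which sets the 5′ end of the mature form on the 5′ arm of the hairpin, and the transcript beyond the hairpin is usually not annotated. Of the 725 peaks, 18 had a microRNA gene as nearest gene, at 11 sites and 9 genes, and 10 of them lay within 250 nt of 7 of these genes. The mature forms of 4 are printed, the seed (bases 2 to 8) in capitals. No pair of them shares a seed.
let-7i-5p: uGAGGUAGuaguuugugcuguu
miR-18a-5p: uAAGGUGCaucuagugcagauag
miR-219a-5p: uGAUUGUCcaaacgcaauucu
miR-142b: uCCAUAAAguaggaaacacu

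At 2 of these genes the peak ended exactly where the mature microRNA begins. The let-7i peak of replicate 1, 5 units high, covers chr10:122985720-122985798, and let-7i-5p, on the minus strand, covers chr10:122985698-122985719, with 0 bases between them. The miR-18a peak of replicate 1, also 5 units, covers chr14:115043801-115043866, and miR-18a-5p, on the plus strand, starts at the next base, chr14:115043867. In both cases the peak lies on the 5′ side of the 5p form and stops at its first base. Neither peak was in another library.

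The same join was then counted in the whole peak table, after these values were seen. In 9 pairs of a peak and a mature microRNA, 0 bases lay between them, and in 9 of 9 the peak was on the 5′ side. The side is read on the strand of the microRNA, since that of the peaks is not given. The 9 include the let-7i and miR-18a pairs that prompted the count, and miR-193b-5p in all 3 libraries. They are therefore not independent. The 7 pairs that are no members are at miR-193b-5p in all 3 libraries and at miR-142a-5p, miR-219a-5p, miR-24-1-5p and miR-671-5p in replicate 2, with midpoints inside gene spans. In all, 80 peaks lay within 300 nt of a mature form, and 8 further pairs overlapped, 0 of them with a member. Starts were read as counting from 0. Reading them from 1 would make the let-7i and miR-219a-5p peaks share 1 base with the mature form, leaving 7 of the 9 joins. It would also make the miR-219a-5p peak of replicate 2 adjoin miR-219c-3p, from the opposite strand, on its 3′ side. Not every join would then be on the 5′ side.

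None of the other microRNA sites within 250 nt was in all 3 libraries. The Mir219a-1 peak of replicate 3 was 10 units high and 33.5 nt from the gene span, on its start side, while replicates 1 and 2 had peaks of 4 and 7 units next to it with midpoints inside the span. Around Mir142b, replicate 1 had peaks of 3 units on both sides, at 78 nt and 218 nt, and replicate 3 had 5 units at 230.5 nt. Mir142, the gene of miR-142a, overlaps Mir142b on the opposite strand, so these peaks cannot be assigned to either gene. Mir6240 had 4 units in replicate 1 and 3 units in replicate 3, at 116 and 121 nt. Mir1247 and Mir8120 had 1 peak each, of 3 and 4 units. Apart from the one at Mir219a-1, these peaks had 3 to 5 units.

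A replicated microRNA-linked site was found farther out, before Mir23a. Mir23a is the lead gene of a cluster that is active in blood cells, and its 2 sites lay 5763.5 to 7614.5 nt before it. The outer site, at chr8:84200870-84201063, had highest peaks of 6, 7 and 4 units, not all at the same place. Those of replicates 1 and 3 ended at chr8:84200937, while that of replicate 2 was at chr8:84201048-84201063. There it overlapped a peak of 3 units in replicate 3 and none of replicate 1. The inner site, at chr8:84202692-84202779, had 11 units in replicate 1, 5 units in replicate 2 and none in replicate 3. With peaks joined within 100 nt, the outer site was therefore in all 3 libraries and the inner one in 2.

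The tallest peaks outside genes were elsewhere, and of the 10 tallest sites 2 were nearest to a ribosomal RNA gene, 1 to Rimbp3 and 7 to predicted genes. Distances given for a site are those of its nearest peak. The highest site lay 273 nt from Rn18s-rs5, a copy of the 18S ribosomal RNA gene, on chromosome 17, and was a peak 1 nt wide in each library: 169, 176 and 154 units in replicates 1, 2 and 3. A second Rn18s-rs5 site, 2659 nt away, had 108, 84 and 90 units. Further ones had 53, 48 and 46 units at 1125 nt and 36, 41 and 35 units at 3203 nt. All lie on the same side of Rn18s-rs5, between chr17:39843134 and chr17:39846081. Ribosomal RNA is made as a long precursor that reaches beyond the 18S part on both sides. Copies of this repeat are nearly identical, so reads of any copy could have been placed here.

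Another Rn18s-rs5 site, 1902.5 nt away and 6 nt wide, had 87 units in replicate 3 and no peak in replicates 1 and 2. It is the only site of 20 or more units that was not in all 3 libraries. With it, the 5 Rn18s-rs5 sites summed to 366, 349 and 412 units, or 12.8%, 13.4% and 16.2% of all height outside genes.

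**Figure D1:**
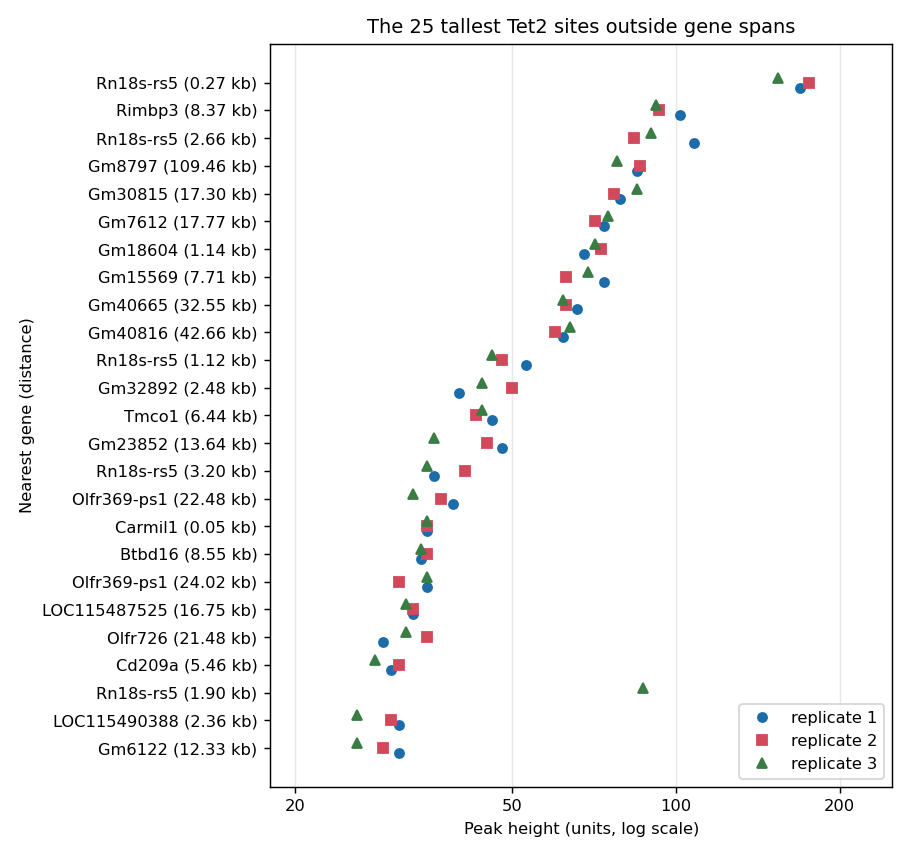
Height in units (log scale) of the 25 tallest sites outside gene spans in each of the 3 libraries, one row per site with its nearest gene and the distance to it. Points of a row lie close together, and the row with a single point is the Rn18s-rs5 site found only in replicate 3, at 87 units.

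The other tall sites lay away from ribosomal RNA. A site 8368.5 nt from Rimbp3 had 102, 93 and 92 units. Gm8797, on chromosome 3, had 85, 86 and 78 units at 109460.5 nt, the most distant of the 10 tallest. Gm30815 had 79, 77 and 85 units at 17303.5 nt. Each of these sites was tall in every library, and all were well below the Rn18s-rs5 site at 273 nt.

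The remaining 5 of the 10 tallest sites were also nearest to predicted genes. Gm7612 had 74, 71 and 75 units, Gm18604 had 68, 73 and 71, and Gm15569 had 74, 63 and 69. Gm40665 had 66, 63 and 62 units, and Gm40816 had 62, 60 and 64. Neighbours in this order overlap in their ranges over the libraries and do not differ beyond their spread. The 10 tallest sites held 31.1%, 32.5% and 33.0% of the height outside genes, 32.2% ± 0.976 (SD, n = 3), and 24 of the 25 tallest were in all 3 libraries.

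Among the next sites in all 3 libraries, the best known neighbours are protein-coding. Tmco1, which encodes a calcium channel of the endoplasmic reticulum, had 46, 43 and 44 units at 6439.5 nt beyond its end. Carmil1, a regulator of actin capping, had 35, 35 and 35 units at 53 nt. Btbd16 had 34, 35 and 34 units at 8555 nt beyond its end. The others are Gm32892 with 40, 50 and 44 units, Gm23852 with 48, 45 and 36, and Olfr369-ps1, an olfactory receptor pseudogene, with 39, 37 and 33. The median coefficient of variation between libraries was 6.26% over the 25 tallest sites.

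Close to genes, within 1 kb, the tall sites sat at both ends. Oat, the gene of ornithine aminotransferase, had 28, 28 and 24 units at 165.5 nt beyond its end. Scarna2, a guide RNA of Cajal bodies that directs modification of spliceosomal RNA, had 27, 19 and 22 units at 19 nt. Utp3, a ribosome biogenesis gene, had 17, 21 and 16 units at 285.5 nt before its start. The sites of Oat, Scarna2 and Utp3 were in every library.

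Tsc1, which encodes a restraint of mTORC1 signalling, had 17, 18 and 13 units at 39.5 nt before its start. Bmp7, a growth factor gene of the TGF-beta family, had 14, 12 and 14 units at 201 nt, and Gm5446 had 10, 17 and 12 units at 7.5 nt. Of these 3, Gm5446 differed most between libraries, while those of Bmp7 lay within 2 units of each other. RefSeq's table gives the strand for 28097 genes, so the side of Carmil1, Scarna2, Bmp7 and Gm5446 is unknown.

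Sites were mostly single. Of 456 sites, 72 (15.8%) had another within 10 kb, and 380 of 413 nearest genes had only 1. Besides Rn18s-rs5 with 5 sites, Tbpl1, a TBP-like factor gene, had 4 sites 12034 to 12912.5 nt before its start on chromosome 10, of 3 to 5 units, in replicates 1 and 3 only. Gm33272, Gm52862, Klrb1c, LOC115490388 and Olfr369-ps1 had 3 sites each, and 9330117O12Rik, Abhd2 and Apbb1ip had 2. These groups differ in how well they repeat: the 3 sites of LOC115490388, of Gm52862 and of Olfr369-ps1 were all in every library, while those of Tbpl1 and Abhd2 were in 1 or 2.

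After Rn18s-rs5, the tallest of these groups was that of Olfr369-ps1 on chromosome 9. Its other sites had 35, 31 and 35 units and 7, 7 and 4 units. At LOC115490388 on chromosome 6 the sites had 31, 30 and 26 units, then 20, 13 and 13, then 11, 12 and 9, with midpoints 2358.5 to 2994 nt beyond the gene's end. Heights at LOC115490388 thus fell in the same order in each library. At Klrb1c, an NK cell receptor gene, the 3 sites lay 14305.5 to 18386 nt beyond the end, with at most 7 units.

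Genes of the lists for these cells more often held a peak inside their span than lay nearest to one outside. Over all coding genes, 14.1% held a peak inside and 1.06% (233 of 21900) were nearest to a peak outside. Of 20 mast cell genes, 13 (65.0%) held a peak inside, and 2 (10.0%) were nearest to 3 peaks outside. Csf2rb, the shared receptor chain for IL-3, had 3 units in replicates 1 and 2, at 179 and 195 nt. Cma1, the mast cell chymase, had 4 units in replicate 3, 1034.5 nt beyond its end. Of 18 haematopoietic transcription factor genes, 9 (50.0%) held a peak inside and 2 (11.1%) were nearest to a peak outside: Ikzf1 in replicate 1 and Gfi1b in replicate 2, both at 3 units. None of these sites was in all 3 libraries. Genes of the lists and all genes were not matched for expression or length.

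Of 98 histone genes, 46 (46.9%) held a peak inside and 5 (5.10%) were nearest to 6 peaks outside. The linker histone gene H1f2 had 3 units in replicate 2 and 6 in replicate 3, beyond its end. H2ac18, H3c14 and H3c15 had 1 peak each before the start, and H2al2a 1 peak at 46001.5 nt. Of 10 translation factor genes, 8 held a peak inside and none was nearest to a peak outside. Of 13 small structural and ribosomal RNA genes, 12 were in the table, and 8 (66.7%) held a peak inside. Another measure, nearest to a peak outside, held for 2 (16.7%), Rn18s-rs5 and Rny3, with 15 such peaks. Over all spans, 0.826% were nearest to a peak outside, and the share with a peak inside was not computed. Rny3, a Y RNA gene, had 4 units in replicates 1 and 2. Socs3, a suppressor of cytokine signalling, had 3 units in replicate 3 at 404.5 nt and 5 in replicate 2 at 16188.5 nt, both beyond its end.

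The mast cell label was checked with peaks inside genes. Of 12 mast cell markers, 7 held a peak in some library, and Fcer1a, Ms4a2, Fcer1g, Mcpt4 and Cma1 held none. Of 5 macrophage markers, 2 held one, in replicate 2 only, and the 5 neutrophil, 4 lymphocyte and 3 erythroid markers held none. Summed deposited heights were 19213, 18270 and 15431 units, and sequencing depth is unknown.

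How far the peaks lay from genes was much the same in each library. The median distance to the nearest span was 3449, 3247 and 3414 nt, and to the nearest coding gene it was 9146 nt on average over libraries. Within 1 kb lay 34.8%, 35.6% and 31.9% of them, within 10 kb 69.2%, 67.8% and 65.7%, and beyond 100 kb 3.99%, 5.58% and 5.09%. The most distant were 344637.5 nt from Gm18496 and 305389.5 nt from Gm33458, each in 1 library at 3 units. A pair of sites 266828 to 267072.5 nt before Cntnap2, a neurexin-family gene, was replicated, with 6, 4 and 5 units at 1 site and 4 and 5 units in replicates 2 and 3 at the other. At the near edge of the rule were Dck at 1.5 nt, Dipk2a at 3.5 nt, Gm5446 at 7.5 nt, Drd1 at 8 nt and Polg2 at 15 nt.

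The nearest peaks were mostly before gene starts. A stranded nearest gene was known for 463 peaks. Within 250 nt, 95 lay on the start side and 17 on the end side, or 38 and 5, 25 and 6, and 32 and 6 in replicates 1, 2 and 3. From 250 nt to 1 kb the counts were 44 and 34, from 1 to 5 kb 45 and 53, and from 5 to 10 kb 35 and 29. The start side was therefore ahead in each library within 250 nt. Overall 44.2%, 42.3% and 37.1% of stranded peaks were on the end side. With spans extended by 1000 nt, which leaves out the peaks near genes, this share was 51.3%.

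**Figure D2:**
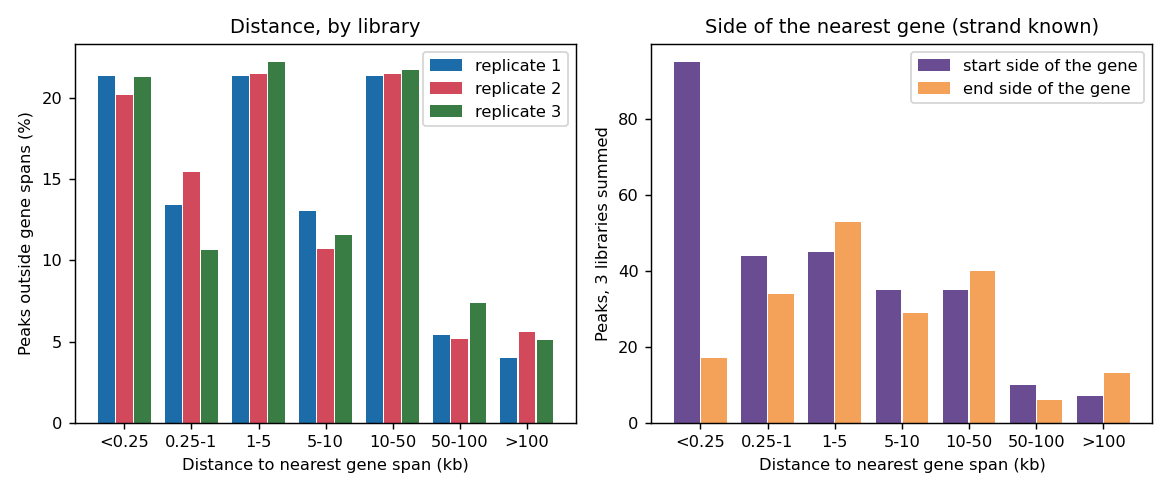
Left, percent of each library's peaks outside gene spans by distance to the nearest span in kb; right, number of peaks on the start and end side of the nearest gene where its strand is known, 3 libraries summed. In the nearest class 95 peaks are on the start side and 17 on the end side.

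By type of nearest gene, 378 peaks were nearest to a protein-coding gene, at a median of 816.5 nt, 164 to a long non-coding RNA gene, at 7718 nt, and 132 to a pseudogene, at 12335 nt. The pseudogene group, which takes in Rn18s-rs5 because the table lists it so, held 36 peaks of 20 or more units and 2780 units in sum, against 28 and 2826 in the larger coding group. Small RNA genes were nearest to 14 (snoRNA), 9 (snRNA) and 3 (guide RNA) peaks.

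Many of the coding genes next to a peak also held Tet2 peaks themselves. Of 135 coding genes with a peak outside but within 1 kb, 54 (40.0%, exact 95% interval 31.7% to 48.8%) held a peak inside their span, against 14.1% of all 21900 coding genes. Among those with a peak within 250 nt before the start, 21 of 57 did (36.8%, 24.4% to 50.7%). The share was 29.9% (23 of 77) at 1 to 10 kb and 17.9% (5 of 28, 6.06% to 36.9%) beyond 10 kb, where the interval includes the share of all coding genes. Genes differ in expression and length, which were not matched, and the intervals cover counting error only.

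Among sites, the share found in all 3 libraries rose with height. Of the 456 sites, 99 were in all 3 libraries (21.7%, exact 95% interval 18.01% to 25.8%), against 14.7% of all sites of the series, members included. A further 66 were in 2 libraries and 291 in 1, of which 133, 81 and 77 in replicates 1, 2 and 3. Of sites whose tallest peak had 20 or more units, 36 of 37 were in all 3, of those with 10 to 19 units 26 of 30, with 5 to 9 units 31 of 99, and with 4 or fewer 6 of 290. Overlap of at least 1 nt was counted in each other library and averaged over those libraries. By this measure peaks of 20 or more units were found less often than those of 10 to 19 units, in 65.2%, 71.9% and 67.2% of cases against 81.5%, 74.0% and 80.4%. Joined by that overlap, the members formed 491 loci, of which 72 (14.7%, 11.7% to 18.1%) were in all 3 libraries, against 11.1% of all loci and 10.7% of loci inside genes.

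Where libraries shared a site, they ranked its height alike. The 291 sites in 1 library enter neither measure below. At the 99 sites in all 3, the midpoints spread over a median of 17 nt, at most 152 nt, and 56 were within 20 nt. Part of this closeness follows from joining peaks within 100 nt. Log2 heights at sites shared by a pair of libraries correlated with r = 0.951 (replicates 1 and 2, 126 sites), 0.938 (1 and 3, 114) and 0.951 (2 and 3, 123), and with Spearman's rho = 0.904, 0.880 and 0.892. Without the 10 tallest sites r was 0.922, 0.898 and 0.921. These points are sites, not replicates, and all share a peak caller and a genome build.

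Averaged over the other libraries, the share of peaks overlapped there was higher outside genes than inside, in each library: 35.1%, 42.7% and 45.6% against 30.7%, 34.0% and 37.7%. The difference was 7.02 ± 2.25 percentage points (SD, n = 3), and an exact sign-flip permutation test over libraries gave p = 0.25, two-sided, the smallest that 3 libraries allow. Of 9 such differences tested, 7 gave this p, with an adjusted p of 0.321 by Benjamini-Hochberg, so no test here can pass 0.05. The difference was 13.1 points for peaks of at least 5 units, 11.1 when peaks within 100 nt were joined, 10.7 for midpoints within 200 nt and 10.7 with spans extended by 1000 nt. Within classes of height the direction was not the same everywhere. At 4 or fewer units the differences were -4.51, 6.80 and 2.67 points (exact permutation p = 0.75), and at 5 to 9 units 12.0, -6.08 and -1.19 (exact permutation p = 1). At 10 to 19 units they were 5.91, 1.78 and 2.88, and at 20 or more units 2.84, 3.13 and 5.87. Below 10 units the libraries thus differed in sign.

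Tall peaks were more common outside genes. Of the peaks outside, 33, 32 and 32 had 20 or more units, or 12.0%, 13.7% and 14.8%, against 2.37%, 2.80% and 2.45% inside (exact sign-flip permutation p = 0.25). Seen the other way, 33.7%, 30.8% and 37.6% of all peaks of 20 or more units lay outside genes, against 8.63%, 7.08% and 7.47% of peaks of 4 or fewer. Those tall peaks held 57.1%, 60.3% and 62.4% of the height outside genes, against 22.3%, 23.9% and 25.1% inside. The median height was 4 units in both classes in every library, so the difference lies in the tall end.

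On the log2 scale the mean height outside was above that inside by 0.34, 0.42 and 0.52, a difference of 0.43 ± 0.088 (SD, n = 3; exact sign-flip permutation p = 0.25, the smallest possible). It fell to 0.26 without the 10 tallest sites outside genes, and to 0.29 when the 10 tallest inside were left out too, and was 0.71 for peaks of at least 5 units. All 3 libraries had the same direction. Peaks outside genes made up 9.14%, 8.32% and 9.09% of peaks and 14.9%, 14.3% and 16.5% of height, means of 8.85% and 15.2%. With spans extended by 1000 nt they made up 5.83% of peaks, and with coding spans only 27.7% of height.

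**Figure D3:**
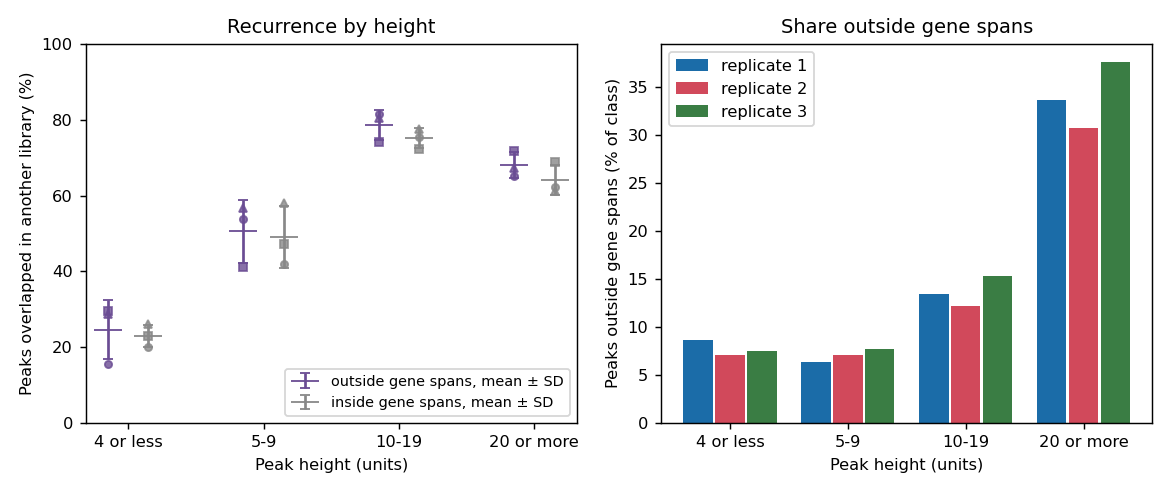
Left, percent of peaks overlapped in each other library, averaged over those libraries, by height class in units, for peaks outside and inside gene spans. Library values are points, with mean ± SD over 3 libraries. Right, percent of all peaks of a class that lie outside gene spans, by library. On the right the share is 33.7%, 30.8% and 37.6% at 20 or more units and 8.63%, 7.08% and 7.47% at 4 or fewer.

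Taken over all heights, peaks outside genes were narrower. The median width was 43, 46 and 41.5 nt, against 54, 54 and 55 nt inside, so they were shorter by 11, 8 and 13.5 nt in replicates 1, 2 and 3 (exact sign-flip permutation p = 0.25, the smallest possible). Peaks of at most 10 nt made up 12.0%, 12.4% and 14.4% outside and 6.85%, 8.14% and 7.59% inside. Width fell as height rose: the medians were 50, 65 and 57 nt at 4 or fewer units, 31, 29 and 25 nt at 10 to 19 units, and 11, 12 and 12.5 nt at 20 or more. Within classes of height the direction was not kept. Inside genes the medians were 61, 62 and 64 nt at 4 or fewer units and 25.5, 28 and 29 nt at 10 to 19. At 20 or more they were 9, 10 and 8 nt, so the tall peaks outside were the wider ones in each library. At 1 nt wide were 6, 10 and 8 peaks, among them the Rn18s-rs5 site at 273 nt. For such peaks an overlap of 1 nt is a strict demand, and the tall sites that fail it were joined within 100 nt above.

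The widest peaks were low. Those of Hmga1, an architectural chromatin protein gene, at 144 nt, Gltp and Nat9 at 142 nt, and Gm8189 and Drd1 at 141 nt had 3 to 5 units, each in 1 library.

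**Figure D4:**
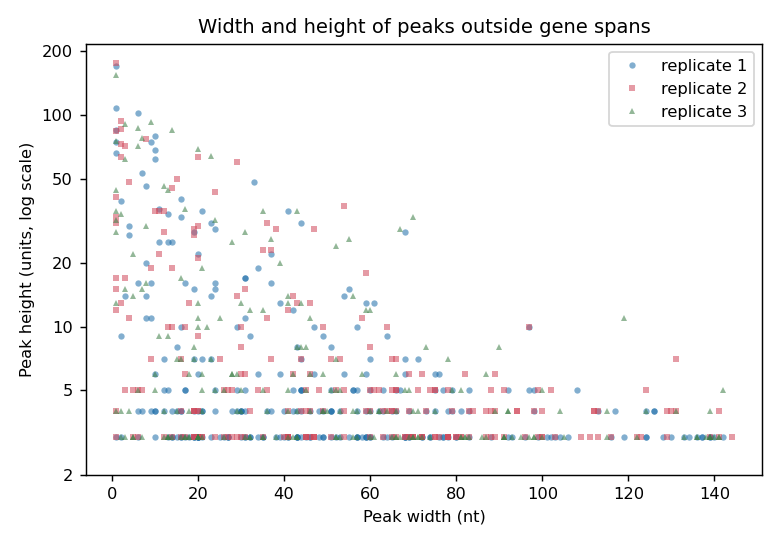
Width in nt and height in units (log scale) of each of the 725 peaks outside gene spans, by library. The tallest points lie at the left, and peaks above 100 units are at most 6 nt wide, while the widest, up to 144 nt, have 3 to 5 units.

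Sites were found on all chromosomes but X. On X, 0 of 95 peaks lay outside genes, which allows a share of up to 3.16% (3 counts of 95), although X holds 8.02% of the 1457 Mb between gene spans. The 95 pool 34, 28 and 33 peaks of replicates 1, 2 and 3. This limit counts them as independent, though a locus can recur between libraries. Chromosome 6 had the most members, 67 peaks at 33 sites, which was 16.4% of its peaks, and chromosome 11 the most sites, 37, or 0.656 per Mb against 0.313 overall. Chromosome 17 held 20.5% of the height outside genes, or 18.8%, 20.1% and 22.8% by library, and most of it was at Rn18s-rs5. On Y, 4 of 7 peaks were outside genes, at 3 sites near Gm33272.

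**Figure D5:**
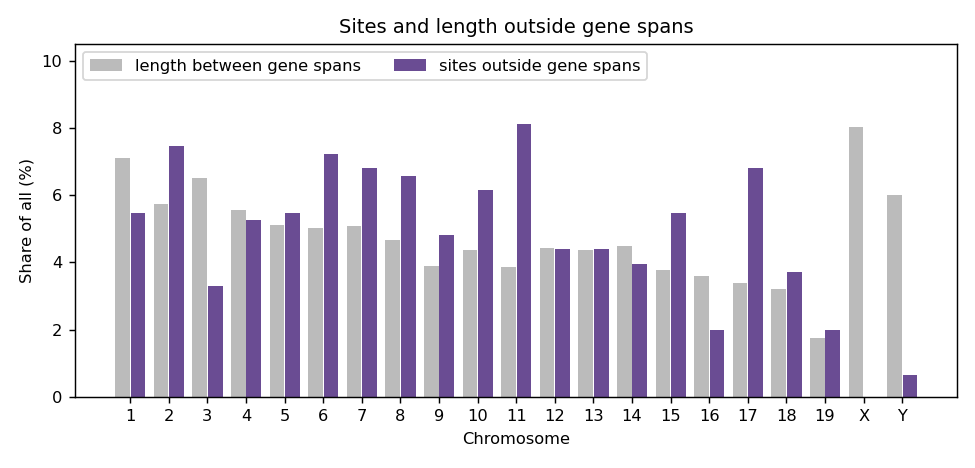
Percent of the length between gene spans and percent of the 456 sites outside gene spans, by chromosome. X holds 8.02% of the length and no site, and chromosome 11 has the most sites, 37.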

How the data were processed

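CLIP peaks of Tet2 in bone marrow derived mast cells came as 3 lists, 1 per library. Trimming and alignment tools named in the submitters' processing notes are cutadapt 1.9 and STAR 2.4.0i, with build mm10. A valley-seeking caller found the peaks, per the labels' protocols; its version and thresholds were not given in the sources used here. Values are a signal: the authors deposited each peak's position and normalized height, whole multiples of a fixed step within 0.05 for 100% of peaks, here called units. The reads behind a unit were not given in the sources used here. Depth is therefore unknown. Starts were read as 0-based, and coordinates are printed 1-based.

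Members are peaks whose midpoint lies in none of 49980 RefSeq spans of GRCm38.p6. Members and gene lists were chosen with earlier results of these data known. Named by rule were the 10 tallest sites, the next 8 in all 3 libraries, the 5 widest and 5 most distant peaks, the 10 genes nearest to most sites, the 10 tallest sites within 1 kb, and up to 4 per list. The promoter sequences printed (all sites in 3 libraries), the microRNA genes, the details of site groups and Socs3 were chosen after values were seen. Sequences are RefSeq's, from 32851 promoter windows of 27025 genes on GRCm38.p6 and from its microRNA table. Repeats of a window's sequence were counted once.

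Within-library differences between peaks outside and inside genes were tested by exact sign flips over 3 libraries, two-sided, tested on simulated data. Sharing means an overlap of at least 1 nt, or sites within 100 nt where stated. Intervals are exact binomial, 95%, and the limit beside a count of 0 is 3 counts of the total. Alternatives changed the spans, the height minimum, the joining rule, the tallest sites and the libraries. Python 3.11.15, pandas 2.3.3, numpy 2.4.6 and scipy 1.17.1 were used.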

Additional observations from a re-analysis of the deposited data

How the results depend on the processing

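No paired analysis was possible because the labels give 1 group, and the tests within a library compare classes of peak. Of the differences tested over libraries, those in overlap and in log2 height stayed above 0 under every alternative run for them. For width, the value followed was the median outside genes, not the difference. The overlap difference ranged from 5.36 to 13.1 points and the log2 height difference from 0.26 to 0.71. Other values were marked as moved when they shifted by more than the spread between libraries or left their interval (counts: by over 1.5 times). Both differences were judged by sign alone, so none of their values was marked. Yet several lay beyond the spread of the reported 7.02 ± 2.25 points and 0.43 ± 0.088, among them 13.1 points, 0.26 and 0.71. By these rules 38 of 120 values moved, as follows. Leaving out each library gave 23.96% to 28.7% of loci in all remaining libraries. With spans extended by 1000 nt, 5.83% of peaks and 11.6% of height lay outside, at 311 loci, with a median width of 36.3 nt and distance of 9356 nt, 50.8% within 10 kb, 36.4% of height in the 10 tallest sites and 51.3% of peaks on the end side, which turned from the minority to the majority. With coding spans only, these were 13.0% of peaks, 27.7% of height, 41.0 nt, 10772 nt and 49.5% within 10 kb. Without predicted models they were 12.1%, 20.04%, 8066 nt, 53.2% within 10 kb, 28.1% in the 10 tallest and 35.3% on the end side. Peaks of at least 5 units formed 193 loci, 24.4% in all 3 libraries, with a width of 29.8 nt, a distance of 5067 nt, 64.5% within 10 kb, 38.6% in the 10 tallest and 49.5% on the end side. Joining peaks within 100 nt gave 22.1% of loci in all 3. The height outside was 10.8% without the 10 tallest sites and 13.3% without those near Rn18s-rs5, where the distance was 3593 nt and the 10 tallest held 30.0%. With no base in a span the distance was 3632 nt, and to the nearest coding gene it was 9146 nt, with 51.8% within 10 kb and 37.3% on the end side. The causes were not tested beyond what each setting changes by its construction. Leaving out the 10 tallest sites of both classes was chosen after seeing the data. Most peaks stand at the lowest heights listed, where few recur. Without strand, exons or a genome, transcripts could not be assigned.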

Other observations

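The order of rows in the deposited lists is linked to the class of peak. Rows run through the chromosomes in order 28, 14 and 10 times in replicates 1, 2 and 3. The last such run holds 69 of 276, 214 of 233 and 201 of 216 of the peaks outside genes, beside 70, 196 and 143 peaks inside genes. What the runs stand for was not given in the sources used here.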
